A study of Mus musculus with 18 samples.

Results

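Gene expression in the mouse liver after sham surgery was described from 9 columns of normalised counts (gene counts divided by a factor for each library), out of 18 columns in the deposited table. The genes described were chosen by their measured values in these columns. They are the genes that make up most of the counts, and the 300 of the 9600 genes with a mean of at least 50 that had the largest standard deviation (SD) of log2(normalised count + 1) over the 9 columns. The table holds 47729 features, of which 23579 were at 0 in each of the 9 columns. Because the spread itself chose the 300 genes, their levels and SDs are given as a description and no test was run on them.

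The study compared livers of Wt, Il22-/- and Il22bp-/- mice after ischemia-reperfusion injury, in which blood flow to the liver is stopped and then restored, or after sham surgery. IL-22 is a cytokine to which hepatocytes respond, and IL-22BP is a secreted protein that binds and blocks it. Each genotype and surgery had 3 samples, so that the sham livers were 3 Wt, 3 Il22-/- and 3 Il22bp-/- samples. The 9 columns are headed W and a number (W1 to W9), and the other 9 are headed IR and a number. The W columns were read as sham by elimination, since the labels list 9 ischemia-reperfusion and 9 sham samples and only 6 wild-type samples. No header names a genotype, so none was assigned, and genotype is mixed into every spread given here. The labels give neither age nor sex, do not say whether littermates were used, and do not say that the samples are separate animals, so the spread may in part be technical.

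Hepatocytes make up most of the mass of the liver and release most plasma proteins, among them albumin, apolipoproteins, fibrinogen and protease inhibitors. The liver also stores and makes lipid after feeding, releases glucose during fasting, and clears drugs and steroids, and the genes for these tasks follow insulin, glucocorticoids, growth hormone and the time of day. The pulsed male and steadier female release of growth hormone sets many sex-biased genes of mouse liver, such as those for major urinary proteins, sulfotransferases and some cytochrome P450 enzymes.

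The W columns held between 10716890 and 12763837 recovered reads each, and 17430 (W8) to 18673 (W6) features above 0. Mitochondrially encoded RNA took 3.61 to 5.63% of the counts. Ribosomal RNA features took 0.388 to 0.523% in 8 columns and 0.711% in W9. The defining markers of liver were present: the summed level of 10 hepatocyte markers was 2140636 to 2601416 normalised counts, that of 12 Kupffer cell markers 10105 to 14857, and that of 13 neutrophil markers 64.2 to 138. Xist, the RNA that coats the inactive X chromosome, was at 1751 to 5335 in all 9 columns, and 4 Y-linked genes (Ddx3y, Eif2s3y, Kdm5d and Uty) summed to at most 2.07. In bulk liver, fewer cells of a type and less RNA per cell cannot be told apart.

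W8 stood apart from the other columns. It was the highest or the lowest column for 204 of the 300 genes (68.0%), highest for 102 and lowest for 102, and for 50.4% of the 9600 genes with a mean of at least 50. The other columns were at an extreme for 25 to 95 of the 300 genes. Over the 300 genes, which W8 itself helped to choose, the median absolute deviation from a gene's own median was 0.91 in W8 (log2 scale). It was 0.18 to 0.39 in the other columns. Over all 9600 genes it was 0.23 in W8, against 0.08 to 0.15 in the others. When the genes were chosen again from the 8 remaining columns, 191 of the 300 were shared. Without W8, the SD of 146 of the 300 fell below 0.43, the lowest among the 300 over 9 columns. SDs were lower in general over the 8 columns, where the lowest among the 300 chosen again was 0.38. The median SD of all genes with a mean of at least 50 was 0.17 over the 8 and 0.19 over the 9 columns. The SD without W8 is given for many of the genes in which W8 is extreme.

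Alb (chr5:90460897-90476602), which encodes albumin, took more counts than any other gene in each column. Positions are those of GRCm38. Its share of the counts was 13.2, 14.5, 15.6, 15.2, 15.9, 14.1, 15.3, 12.9 and 13.3% in W1 to W9, or 14.4% ± 1.11 (SD, n = 9). W5 was highest and W8 lowest, and the whole range was small beside the gap to the next gene. Apoe and Apoa2, both apolipoproteins of circulating lipid particles, followed with 1.68% ± 0.17 and 1.51% ± 0.23. The mitochondrial cytochrome oxidase subunit mt-Co1 took 1.35%, the main protein of high-density lipoprotein, Apoa1, took 1.20%, and the fatty acid carrier Fabp1 took 1.10%. Ahsg (fetuin-A), mt-Cytb, Serpina3k, Selenop (the plasma selenium carrier), Gc (the vitamin D carrier) and Ttr (the thyroid hormone carrier) each took between 0.813 and 1.05%.

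The top 25 also held the heme carrier Hpx (0.550%), the major urinary protein Mup3 (0.542%), the antitrypsin Serpina1b (0.474%), and Apoc1 (0.474%). Below them came the fibrinogen chains Fgb (0.468%) and Fgg (0.449%), the P450 enzyme Cyp2e1 (0.457%), the fatty acid desaturase Scd1 (0.453%), the complement protein C3 (0.425%) and Apob (0.413%). The mitochondrial genes mt-Nd1 and mt-Nd2 took 0.717% and 0.508%. In total, 10 genes reached 25% of the counts, 121 reached 50%, 950 reached 75% and 3307 reached 90%. Of the 121 genes, 40 were in the list of secreted plasma proteins, 9 were mitochondrially encoded and 3 were cytochrome P450 genes. The number of genes needed for 50% ranged over single columns from 104 to 137.

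**Figure D1:**
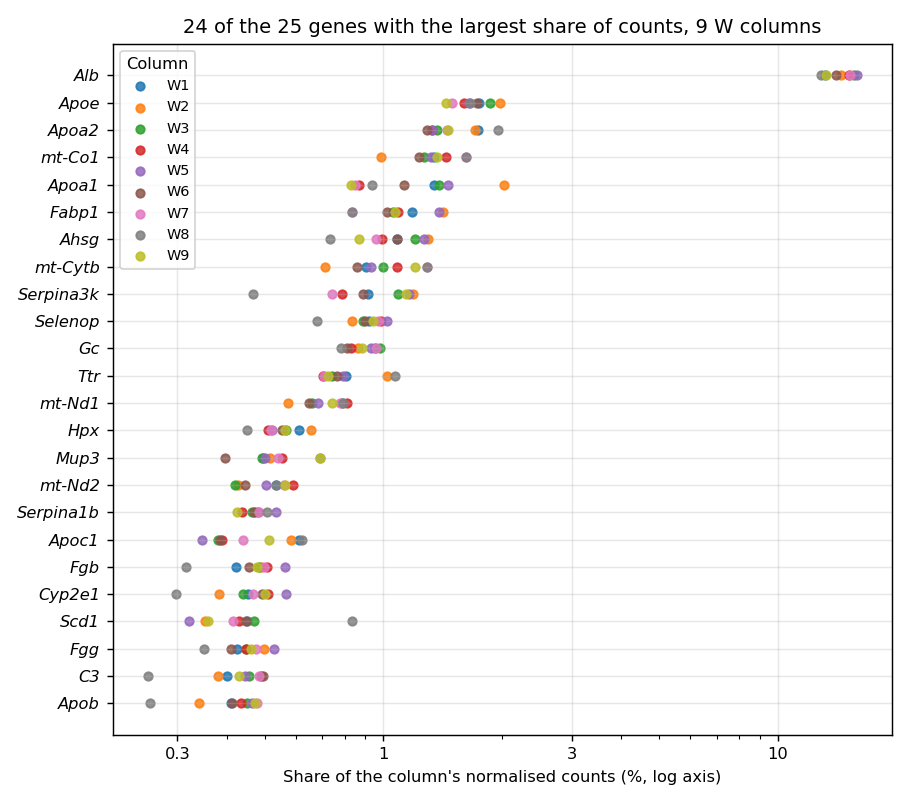
Share of normalised counts (%, log axis) of 24 of the 25 genes with the largest mean share, with 1 point for each of the 9 W columns. Alb lies between 12.9 and 15.9%, and no other gene exceeds 2.02% in any column; the points of Apoa1, Serpina3k and Scd1 are more spread than those of Alb.

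Shares were also summed by gene family. The apolipoproteins together took 6.33% ± 0.70 (SD, n = 9), the serpins of clade A 2.25% ± 0.28, the fibrinogen chains 1.31% ± 0.18, the cytochrome P450 genes 2.18% ± 0.22, and the major urinary proteins 0.654% ± 0.093. The fibrinogen share ran from 0.900 to 1.56%, and that of the major urinary proteins from 0.504% in W6 to 0.810% in W9. W8 was the lowest column for the serpins (1.73%), for fibrinogen and for the P450 genes (1.71%). W2 was the highest for apolipoproteins (7.79%). Relative to exonic length, Alb was again first, followed by Apoa2 and Fabp1, and 33 genes reached 50% of the length-scaled total.

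By the median SD the abundant genes were close to all genes, though more of them were among the 300. The 121 genes had a median SD of 0.20 on the log2 scale, and all 9600 had a median of 0.19. Of the 121, 9 were among the 300 (7.44%), where the 300 are 3.125% of the 9600. The most variable of them was Serpina1e, an alpha-1-antitrypsin paralogue, with an SD of 1.01. Apoa1 was another: its normalised counts were 169043, 251637, 174593, 102788, 180257, 129186, 106100, 117672 and 103225 in W1 to W9, so that W2 was highest and W4, W7 and W9 were close to each other at the bottom. Scd1, which lies at rank 397 by spread, was at 57016, 43780, 59230, 50973, 39848, 51280, 52030, 104630 and 44921, and W8 stood above the rest.

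Among genes with a mean of at least 5000, of which there are 301, Asgr1 had the smallest SD (0.06). It encodes the hepatocyte receptor that clears desialylated glycoproteins, and its values lay between 6964 and 7991. Tmbim6, Lamp1, Atp5b, Apof, Rbp4, Hsp90ab1, Proc, Adh1 and Itm2b followed with SDs of 0.07 to 0.09. Among all 9600 genes, Bsg, a chaperone of lactate transporters, had the smallest SD (0.03), with values from 4443 to 4731. Nfe2l1, Rxra, Nus1, Kdm3b, Nipsnap2, Wipi2, Chchd4, Ubfd1 and Taf15 came next, with SDs of 0.04 to 0.05. Rxra, the partner of several liver nuclear receptors, lay between 3528 and 3870.

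Over the 9600 genes the SD ran from 0.09 at the 5th percentile to 0.39 at the 95th. The 300 genes had SDs of 0.43 to 3.76 with a median of 0.51, and 16 of them were above 1. At the edge, Creld2, Eif4ebp3, H2afj, Gm8995 and Mcm5 were just inside and Gm35986, Gm13456, Pgp, Wtip and Odf3b just outside, with SDs that were almost the same (0.4329 at rank 300 and 0.4327 at rank 301). Counting error alone would give a median SD of 0.13 for the 300 genes and 0.09 for all 9600. The observed SD was 4.62 times the counting SD at the median of the 300 and 2.03 times at the least. Over all 9600 genes the median ratio was 1.97. Low genes were more frequent among the 300: 35.7% had a mean between 50 and 100, against 17.9% of the 9600. Still, 64 of the 300 had a mean of at least 1000 (21.3%, against 15.9% of all).

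**Figure D2:**
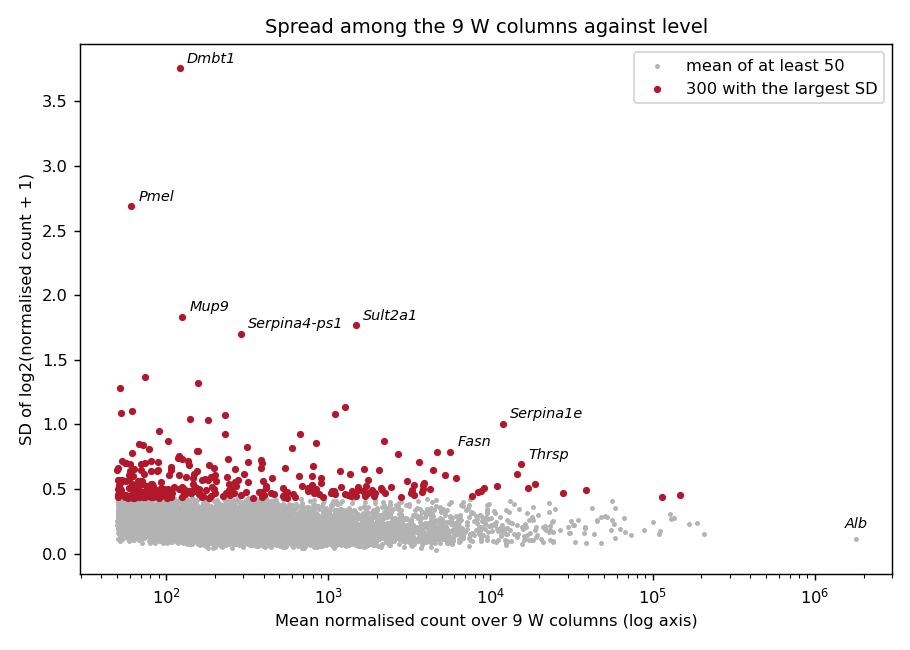
SD of log2(normalised count + 1) over the 9 W columns against the mean normalised count (log axis) for the 9600 genes with a mean of at least 50; red points are the 300 with the largest SD. Dmbt1 (3.76) and Pmel (2.69) lie far above the rest, and Alb lies at the right with a small SD.

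Several genes had separate high and low columns with nothing between them. Pmel (chr10:128704195-128720238), which encodes the fibril protein of melanosomes, was at 0.991, 4.08, 6.21, 4.20, 142, 116, 121, 2.19 and 151 in W1 to W9. W5, W6, W7 and W9 were high and the other 5 columns low, with a gap of 4.02 on the log2 scale between them. Mup9, a major urinary protein gene, was at 21.8, 28.6, 24.9, 23.1, 307, 195, 222, 15.4 and 296, and the same 4 columns were high. The gap for Mup9 was 2.73.

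By Pearson correlation over the 9 columns, the genes most like Pmel among the 300 were Mup9 (r = 0.98), the pseudogene Scp2-ps2 (0.96) and Mup6 (0.88). Scp2-ps2 was at 42.6, 42.9, 45.6, 50.3, 118, 96.4, 97.6, 56.0 and 110. Mup6 was at 50.5, 36.8, 26.9, 43.0, 124, 75.6, 94.3, 30.7 and 131, and here W6 lay nearer to the low columns than to W5 and W9. Mup6 was the next Mup gene by spread, with an SD of 0.85. These correlations rest on 9 points, and members were picked for their spread, so they describe shared order only. Without W8 the SDs were 2.68 for Pmel and 1.78 for Mup9.

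Mup9 and Mup6 lie in the Mup cluster of chromosome 4, where genes are near copies of each other, so reads may have been split or moved between them. Their upstream sequences are shown because these 2 members followed each other in the 9 columns. They are the 250 bases before each start from RefSeq (GRCm38.p6), 5′ to 3′ on the gene's strand. Mup9 lies at chr4:60421953-60422202 on the minus strand and Mup6 at chr4:60003231-60003480 on the plus strand, and capitals mark matches of the motif TATAAA on either strand.
Mup9: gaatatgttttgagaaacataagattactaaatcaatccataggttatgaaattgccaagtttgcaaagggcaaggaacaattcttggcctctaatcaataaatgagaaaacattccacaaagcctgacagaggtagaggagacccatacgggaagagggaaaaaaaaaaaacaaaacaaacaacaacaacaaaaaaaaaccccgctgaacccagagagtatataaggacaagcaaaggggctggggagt
Mup6: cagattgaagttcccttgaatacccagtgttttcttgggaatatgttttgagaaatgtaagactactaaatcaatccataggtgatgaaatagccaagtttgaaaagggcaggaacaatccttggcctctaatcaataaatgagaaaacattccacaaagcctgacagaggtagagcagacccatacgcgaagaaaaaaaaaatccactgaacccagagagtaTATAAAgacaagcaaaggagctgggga
In an alignment of the pair, 200 of 212 aligned positions (94.3%) were identical, with 76 gap positions. TATAAA was in 12.4% of all 32851 RefSeq promoter windows, with 1 match here in Mup6 and none in Mup9.

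Wdfy1 (chr1:79702262-79776143), which encodes an endosomal adaptor protein, divided the columns in another way. Its values were 71.4, 66.4, 71.5, 300, 308, 329, 313, 297 and 320 in W1 to W9. W1, W2 and W3 were low and the other 6 within 297 to 329, with a gap of 2.04. Gm13340, the gene most like it (r = 0.85), was at 46.6, 27.6, 36.2, 135, 139, 91.2, 158, 50.5 and 136, low in W1, W2, W3 and W8. Nnt, the mitochondrial transhydrogenase that links NADH and NADPH, had yet another order, at 484, 476, 503, 524, 926, 655, 1145, 1207 and 1214: W1 to W4 were low, W6 and W5 between, and W7 to W9 high. Gm5424 was most like Dct (r = 0.93), an enzyme of melanin synthesis, and Nnt (0.89), and Dct was at 203, 164, 150, 143, 253, 274, 286, 308 and 434.

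Dmbt1 (chr7:131032053-131121630) had the largest SD of all. It encodes a secreted scavenger-receptor protein of epithelia, and its values were 0, 48.0, 0, 0, 1.15, 641, 384, 18.7 and 1.13. W6 and W7 were high, W2 and W8 intermediate, and W1, W3, W4, W5 and W9 at or near 0. At a mean of 122 this gene passed the minimum through a few columns. Krt19, a keratin of bile duct cells picked after its values were seen, was at 11.9, 17.4, 7.25, 11.5, 8.08, 61.1, 29.9, 24.1 and 4.51, highest in W6 and W7. The 8 bile duct markers together did not follow Dmbt1: their sum was 388 in W5 to 781 in W7, with 564 in W9 and 509 in W6, and Spp1 was the largest part. Of 20 markers of exocrine pancreas, 13 had a mean below 1, and Cpa1 and Pnlip were at 0 in every column, while Ctrb1, also picked after its values were seen, was at 26.9 in W6 and 11.1 in W7 and at most 2.10 elsewhere. The sum of the 20 had another order, from 337 in W2 to 538 in W8 and 503 in W9, with 413 in W6 and 426 in W7, and most of it came from Cela1. The part of these cell markers in the level of Dmbt1 was not tested.

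Other genes with a gap of at least 1 on the log2 scale between high and low columns were Serpina4-ps1, Gadd45g, Akr1c18 and the mitochondrial transfer RNA gene mt-Ti. Gaps that set off a single extreme column were not counted here, such as that of Sult2a1 (49.6 in W9, 636 or more in the others). Serpina4-ps1, a pseudogene in the serpin cluster, was at 68.4, 325, 294, 424, 319, 711, 76.5, 16.5 and 374, lowest in W8 and low in W1 and W7. Akr1c18, whose product inactivates progesterone, was at 47.6, 71.5, 73.5, 52.4, 104, 79.8, 22.2, 7.68 and 11.3, with W7, W8 and W9 low. The SDs with and without W8 were 1.70 and 1.18 for Serpina4-ps1 and 1.28 and 1.04 for Akr1c18. The stress gene Gadd45g was high in W2, W3, W5, W6 and W9 and low in W1, W4, W7 and W8, as described with its group later.

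**Figure D3:**
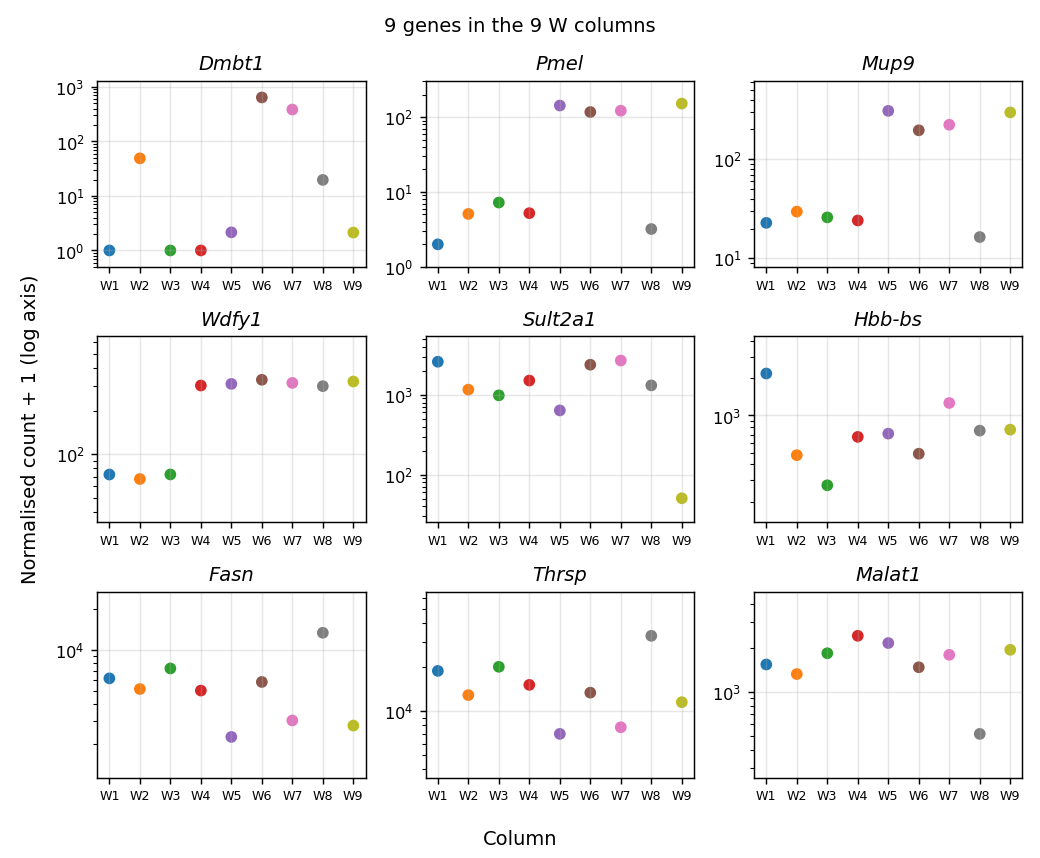
Normalised count + 1 (log axis) of 9 genes in the columns W1 to W9, 1 point per column in the same color in every panel. Pmel and Mup9 are high in W5, W6, W7 and W9; Wdfy1 is low in W1, W2 and W3; Sult2a1 is low in W9; Fasn and Thrsp are highest and Malat1 is lowest in W8.

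The 300 genes were ordered into sets that moved together, by average linkage on 1 minus the Pearson correlation, cut at 0.5. This gave 10 groups of at least 8 genes, which held 248 of the 300. The groups are described by the median deviation of their members from each gene's own median. A correlation of this kind over 9 columns is high wherever a single column is extreme, and W8 was the extreme column of the largest groups.

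**Figure D4:**
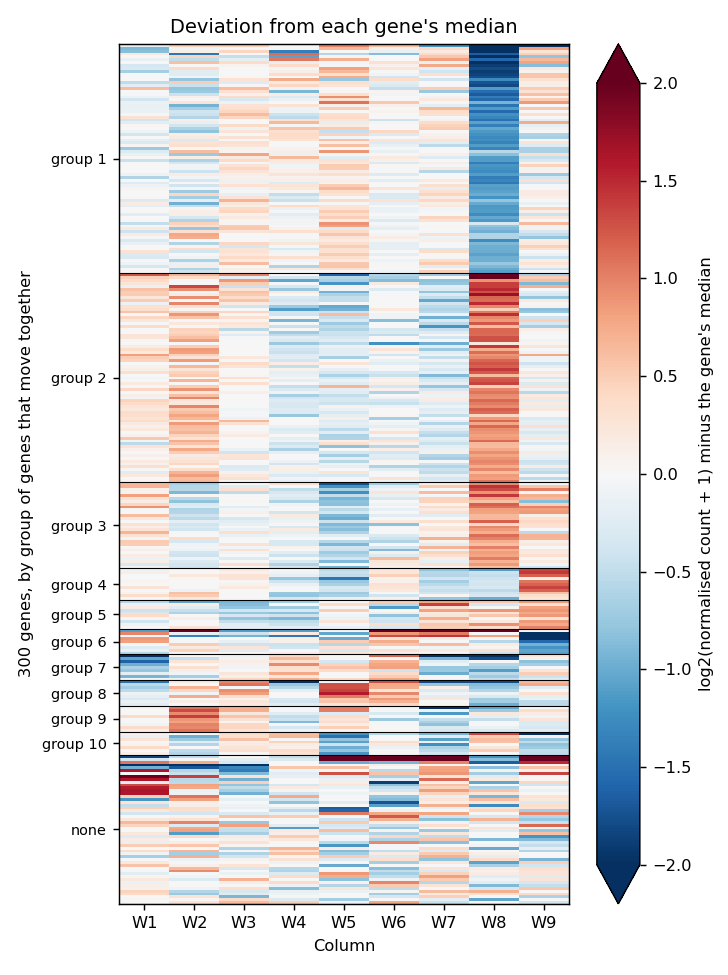
Deviation of log2(normalised count + 1) from each gene's median over the 9 W columns, for the 300 genes in rows, ordered by group and by SD within a group; red is above and blue below the median, and the color scale ends at a deviation of 2 on either side. Group 1 (80 genes) is low and group 2 (73 genes) high in W8, group 4 is high and group 6 low in W9, and group 9 is high in W2.

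The group of 73 genes highest in W8 held some genes of fatty acid synthesis. In the liver this pathway turns glucose into fatty acids after feeding, under the transcription factor SREBP1 and insulin. Most of the 73 were other genes, since the list of this pathway had 9 members among all 300. The ribosomal RNA feature Gm24601, the pseudogene Chchd2-ps and Slc10a2 were also among the leading genes of the group. The median deviation of the group was 1.04 in W8, 0.49 in W2 and 0.19 in W1, and -0.31 in W7 and -0.30 in W5. W8 was the highest column for 65 of the 73. Group members also tended to be short and GC-rich, with a median exonic length of 1831 bases and 57.4% GC, against 4484 bases and 49.3% over the 9600 genes.

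Promoters of 2 leading lipid genes of this group, and of Pnpla3, which follows below, are shown because the genes moved together in the 9 columns. Each is the 250 bases before the start from RefSeq (GRCm38.p6), 5′ to 3′ on the gene's strand: Fasn at chr11:120824548-120824797 (minus strand), Thrsp at chr7:97417551-97417800 (minus strand) and Pnpla3 at chr15:84167566-84167815 (plus strand). Capitals mark the motif CCAAT on either strand (read as ATTGG on the other), and neighbouring matches may overlap.
Fasn: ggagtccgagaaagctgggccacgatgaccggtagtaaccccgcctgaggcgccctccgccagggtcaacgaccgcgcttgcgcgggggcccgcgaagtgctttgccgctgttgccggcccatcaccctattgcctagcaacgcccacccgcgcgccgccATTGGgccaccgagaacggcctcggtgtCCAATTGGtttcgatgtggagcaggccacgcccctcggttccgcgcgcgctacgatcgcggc
Thrsp: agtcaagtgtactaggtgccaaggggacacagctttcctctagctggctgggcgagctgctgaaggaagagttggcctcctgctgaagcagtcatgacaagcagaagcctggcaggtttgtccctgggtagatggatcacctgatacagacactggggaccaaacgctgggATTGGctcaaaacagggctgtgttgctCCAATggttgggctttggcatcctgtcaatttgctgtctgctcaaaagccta
Pnpla3: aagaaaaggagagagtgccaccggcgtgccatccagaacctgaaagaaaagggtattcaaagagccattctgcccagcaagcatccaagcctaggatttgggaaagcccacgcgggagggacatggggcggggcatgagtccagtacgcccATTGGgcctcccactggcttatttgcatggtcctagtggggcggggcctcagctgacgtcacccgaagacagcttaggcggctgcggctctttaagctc
The window of Fasn had 3 matches, that of Thrsp 2 and that of Pnpla3 1. CCAAT was in 33.8% of all 32851 windows. The E-box CACGTG had no match in these 3 windows, and it was in 6.02% of all windows. A match of letters is a description and not a binding site. Of the 300 genes, 220 had a window in the table, so the motif content of the whole set is not known. Over the whole windows of these 220, CCAAT was in 41.8%, CACGTG in 9.09% and TATAAA in 15.0%. Over the 7745 windows of genes with a mean of at least 50, the shares were 38.9, 10.6 and 7.20%. These shares were not tested.

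Fasn, the fatty acid synthase, was at 6143, 5126, 7268, 4993, 2273, 5779, 3005, 13320 and 2756 in W1 to W9. W8 was highest, and W5, W9 and W7 lowest. Thrsp (Spot 14), a nuclear factor of lipid synthesis, was at 18881, 12884, 20150, 15146, 6984, 13393, 7755, 32871 and 11523 and kept nearly the same order (r = 0.95 with Fasn). Angptl8, a feeding-induced hormone that restrains lipoprotein lipase, was at 2059, 1398, 1712, 870, 290, 581, 528, 3386 and 561; W8 was highest and W5 lowest. G0s2, an inhibitor of the lipase ATGL, was at 2185, 2077, 1387, 1221, 1064, 981, 1573, 7258 and 2244, high in W8 alone. Mid1ip1, the partner of Thrsp, ranged from 410 in W5 to 2044 in W8.

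Without W8 the spread of these genes fell unequally. The SD of Angptl8 was 1.14 with and 0.98 without W8, that of Fasn 0.79 and 0.62, that of Thrsp 0.69 and 0.55, and that of G0s2 0.87 and 0.47. The last fell by more than the others. Acly, which makes the acetyl-CoA for the pathway, was at 3722, 3252, 4104, 3226, 2754, 3609, 2887, 8296 and 2663, with an SD of 0.50 with and 0.22 without W8. Srebf1, the gene of SREBP1, ranged from 2207 in W5 to 5910 in W8.

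Of 21 genes in the list of fatty acid synthesis with a mean of at least 50, 9 were among the 300 (42.9%), where the 300 are 3.125% of all such genes. The list's median SD was 0.40, and 6 of the 21 were among the 300 when W8 was left out. A smaller group of 8 genes was low in W5 (median deviation -1.03) and also in W9, W7 and W2. It held Pnpla3, a lipid droplet protein, the fatty acid elongase Elovl6, the ketone-using enzyme Aacs, the glycogen phosphatase subunit Ppp1r3b, the transferrin receptor Tfrc, the secreted protein Tsku, Cyp2a22 and 1700017B05Rik. Pnpla3 was at 145, 137, 177, 208, 60.0, 93.2, 72.1, 346 and 30.4, lowest in W9 and highest in W8, with an SD of 1.04 with and 0.91 without W8. Tfrc was at 354, 200, 493, 624, 139, 393, 334, 562 and 419, lowest in W5 and highest in W4. Cholesterol synthesis, driven by the related factor SREBP2, had 2 of 24 genes among the 300. Idi1, the isopentenyl diphosphate isomerase, was among them at 114, 114, 147, 90.2, 68.1, 111, 97.6, 53.8 and 112, highest in W3 and lowest in W8.

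The group of 80 genes lowest in W8 had a median deviation of -1.16 there, and between -0.09 and 0.31 in the other columns. W8 was the lowest column for 77 of the 80. The genes were long, with a median exonic length of 5770 bases and 46.1% GC. Serpina1e was at 7704, 15027, 18629, 5300, 13837, 12463, 15523, 2223 and 16741, with W8 lowest and W4 and W1 next. Hsd3b5, a steroid reductase known as male-biased, was at 93.2, 163, 170, 174, 272, 188, 230, 27.4 and 304. Selenbp2 was at 548, 831, 710, 488, 529, 674, 494, 134 and 956, and its lowest column was again W8. The SDs without W8 were 0.62 for Serpina1e, 0.52 for Hsd3b5 and 0.36 for Selenbp2, so each remained above the median of all genes.

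Other secreted proteins were in this group. Mug1, a murinoglobulin that traps proteases, was at 12857, 14892, 18393, 11497, 26490, 13891, 13282, 5345 and 14454, lowest in W8 and highest in W5. C8a, a subunit of the complement pore, was at 3135, 3030, 3837, 2944, 4497, 3213, 3071, 1397 and 4319. Pzp, the pregnancy zone protein, was at 37844, 35502, 50515, 40000, 53124, 36735, 42653, 16349 and 36015. W8 was the lowest column for all of these. Their SDs with and without W8 were 0.61 and 0.38 for Mug1, 0.49 and 0.24 for C8a and 0.49 and 0.22 for Pzp. Of the 68 secreted plasma proteins with a mean of at least 50, 8 were among the 300, and 3 when W8 was left out. The list's median SD was 0.21. The long noncoding RNAs Malat1 and Xist were lowest in W8 too, whereas 2410022M11Rik, annotated as a long noncoding RNA, was highest there (134). Malat1, a nuclear RNA, was at 1536, 1320, 1835, 2418, 2156, 1470, 1790, 512 and 1937, and Xist was at 4574, 3622, 4429, 5129, 5335, 3758, 4976, 1751 and 4832. Their SDs were 0.66 and 0.50 with W8 and 0.29 and 0.20 without it.

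Growth hormone and IGF genes in the group included Socs2, the feedback inhibitor of the growth hormone receptor. It was at 397, 800, 475, 650, 708, 487, 567, 171 and 629, lowest in W8. Igfbp1, an IGF-binding protein that rises in fasting, was at 770, 1048, 552, 366, 798, 766, 1117, 142 and 443, lowest in W8 and highest in W7. Onecut1, a hepatocyte transcription factor, was at 110, 63.3, 134, 187, 64.6, 142, 83.2, 45.0 and 136, low in W8, W2 and W5. In the list of growth hormone and IGF genes, 7 of 21 were among the 300, though the list's median SD of 0.21 was close to that of all genes. Cyp7a1, the rate-limiting enzyme of bile acid synthesis, was also in the group, at 6349, 2398, 6350, 3899, 4130, 2962, 5785, 1908 and 5877. W8 and W2 were its lowest columns. The SDs with and without W8 were 0.66 and 0.33 for Socs2, 0.93 and 0.57 for Igfbp1, 0.67 and 0.56 for Onecut1 and 0.65 and 0.54 for Cyp7a1.

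In W8 the deviation followed transcript length and GC content across all genes, not among the 300 alone. The genes with a length or GC value were divided into 4 classes of equal size by each property. Over all of them, the median deviation in W8 was 0.24 in the class of shortest exonic length and -0.17 in the class of longest. It was 0.25 in the class of highest GC and -0.07 in that of lowest. W2 had the same signs with 0.10 and -0.10 for length and 0.16 and -0.12 for GC. The other columns stayed between -0.11 and 0.09 in every class of either property. Within the 300, W8 was at 0.54 in the shortest class and -0.99 in the longest. The part of length and GC in the values of W8 was not tested. Rescaling by TMM or by the upper quartile left the median deviation of the large groups in W8 at -1.17 and -1.16 (80 genes) and at 1.00 and 1.01 (73 genes).

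**Figure D5:**
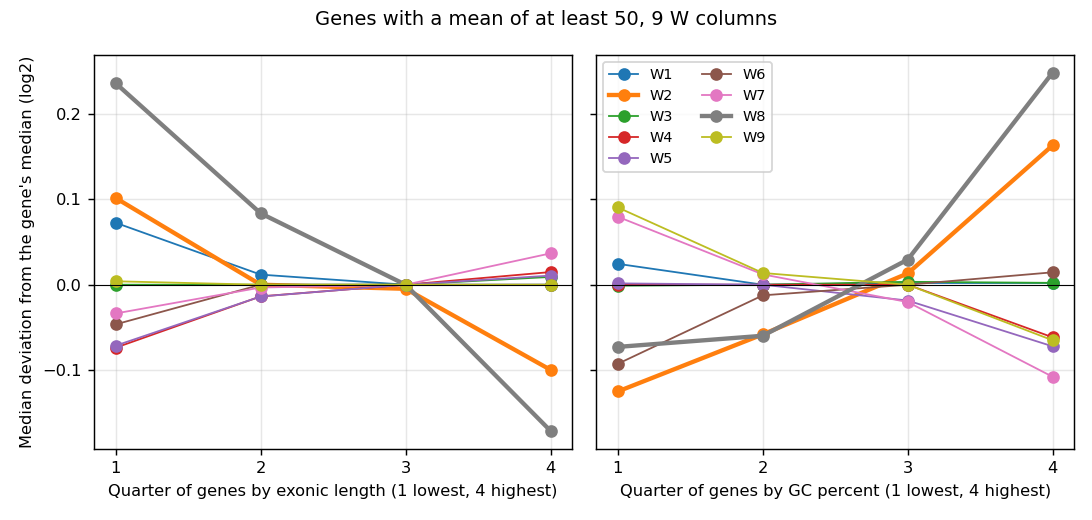
Median deviation from each gene's own median (log2) for the genes with a mean of at least 50, in 4 classes of exonic length (left) and of GC percent (right), 1 line per W column, with W2 and W8 drawn thicker. W8 falls from 0.24 to -0.17 with length and ends at 0.25 in the class of highest GC.

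A group of 30 genes was high in W8 (0.84) and low in W5 (-0.69) and W2 (-0.37). Hamp2, a hepcidin gene, was at 6102, 2545, 3172, 3798, 1661, 3236, 5459, 10324 and 5582 in W1 to W9; hepcidin peptides are known as regulators of iron export, and the role of Hamp2 is less clear. Leap2, a liver peptide that blocks the ghrelin receptor, was at 1858, 1088, 1055, 910, 750, 949, 1043, 2814 and 1752. Cth, the enzyme that makes cysteine from cystathionine, was at 6950, 3819, 5637, 4587, 2960, 4496, 7759, 9867 and 8966, lowest in W5. Eci3, Lrtm1, the glutathione transferase Gsta2, the drug-inducible P450 Cyp2b10 and Ggt6 were the other leading members. Ass1 and Oat, enzymes of the urea cycle and of ornithine breakdown, were highest in W8 as well, at 7561, 6637, 6566, 7024, 5609, 8704, 9565, 17280 and 10126 for Ass1 and 8467, 5494, 8005, 8350, 5719, 7431, 9372, 14961 and 14837 for Oat. The SDs with and without W8 were 0.78 and 0.64 for Hamp2, 0.61 and 0.45 for Leap2, 0.59 and 0.54 for Cth, 0.48 and 0.29 for Ass1 and 0.51 and 0.45 for Oat. Of 31 genes of amino acid metabolism, 4 were among the 300, and 2 without W8. The fourth was the methyltransferase Gnmt, which ranged from 15817 in W5 to 51016 in W8.

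W9 was set apart by a pair of groups. The first, of 11 genes, had a median deviation of 1.18 in W9 and between -0.54 and 0.18 elsewhere, and held small and ribosomal RNA features. CT010467.1, a ribosomal RNA feature, was at 17876, 17744, 18728, 16070, 11379, 21893, 12236, 13719 and 40229, highest in W9 and next in W6. Rn7sk, the small RNA that restrains transcription elongation, was at 78.3, 85.8, 96.3, 83.9, 57.7, 102, 47.7, 38.4 and 215. Lars2, the mitochondrial leucyl-tRNA synthetase, was at 3584, 2927, 3359, 2863, 2362, 3519, 2216, 2333 and 7435, also highest in W9. The same column was highest for Mir6236, Gm23935, Gm37194 and Gm15564. The phosphatase gene Dusp1 was grouped with them but was not highest in W9. The share of ribosomal RNA features, given above, was highest in W9 too, but it is not separate from this group. CT010467.1 alone took 0.321% of the counts in W9, out of the 0.711% of all such features. The part of ribosomal RNA in the levels of the other members was not tested.

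The second group that set W9 apart was low there, with a median deviation of -1.18. It held 3 neighbouring sulfotransferase genes of chromosome 7, which add sulfate to steroids and bile acids and are known as female-biased in mouse liver. Sult2a1 (chr7:13796246-13837409) was at 2591, 1159, 982, 1506, 636, 2378, 2683, 1310 and 49.6. Sult2a2 (chr7:13733505-13779636) was at 2037, 1094, 1116, 1239, 552, 1371, 1207, 1105 and 154, and Sult2a5 (chr7:13623967-13670807) at 64.4, 24.5, 33.1, 23.1, 64.6, 160, 177, 115 and 10.1. In all of them W9 was the lowest column, and for Sult2a1 its 49.6 lay far below the next, 636 in W5. Near-identical Sult2a copies may share reads, so the split between them is uncertain. Sult2a1 and Sult2a2 had r = 0.97 over the 9 columns. Aldh3b3 and Scarf2 were also lowest in W9, as were Ly6d and 1810053B23Rik.

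The list of sex-biased liver and sex chromosome genes had 11 of 27 members among the 300 (40.7%), Xist among them, and 12 when W8 was left out. Their median SD was 0.38. The members did not share an order. A1bg, known as female-biased in mouse liver, was at 2513, 2060, 4136, 2957, 3275, 798, 3210, 1432 and 3977, lowest in W6 and then W8. Slco1a1, an organic anion transporter known as male-biased, was at 3555, 3345, 3649, 3558, 5936, 2726, 3565, 1040 and 5238, lowest in W8, with an SD of 0.71 with and 0.36 without that column. Of the major urinary protein genes, 7 of 13 were among the 300 (53.8%), and 9 without W8. Mup3, which took the most counts of them, was not among the 300, with an SD of 0.28. Mup11 was at 496, 656, 502, 541, 1150, 788, 525, 282 and 972, highest in W5, and Mup17 at 4279, 5397, 1612, 2725, 3928, 2983, 2597, 2122 and 1993, highest in W2.

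Another group of 9 genes, led by Gadd45g and Myc, was high in W5 (1.04) and W6 (0.74) and low in W8 (-0.71). Gadd45g, which encodes a growth arrest protein, was at 54.5, 175, 301, 36.7, 154, 374, 43.3, 43.9 and 241. The growth-promoting transcription factor Myc was at 55.5, 80.7, 172, 47.2, 199, 138, 46.6, 43.9 and 137, and was the gene most like Gadd45g (r = 0.89). Both were high in W3, W5, W6 and W9. Chac1, a glutathione-degrading enzyme of the amino acid stress response, was at 27.8, 74.5, 45.6, 30.4, 112, 76.7, 49.9, 26.3 and 39.4, and the glucocorticoid target Fkbp5 at 794, 1500, 1130, 898, 1847, 1281, 772, 730 and 790, each highest in W5. Foxq1, Slc17a8, Brca1 and Disp2 were the others with leading SDs.

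Genes of gluconeogenesis and fasting had 9 of 20 members among the 300 (45.0%), with a median SD of 0.40, and 8 without W8. Gadd45g, Igfbp1, Chac1 and Zbtb16 led them. Zbtb16, a transcription factor induced by glucocorticoids, was at 184, 110, 232, 97.5, 189, 191, 110, 63.6 and 224. Immediate early genes, which respond within minutes to stimuli and to handling of tissue, had 6 of 17 (35.3%). Egr1 was at 503, 359, 117, 159, 240, 115, 306, 204 and 154, highest in W1, and differed in order from Myc. The matricellular gene Ccn1 was at 69.4, 64.3, 44.5, 42.0, 15.0, 49.7, 44.4, 61.4 and 60.8, lowest in W5. Junb was at 415, 704, 306, 192, 346, 245, 415, 507 and 435, highest in W2 and lowest in W4.

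A group of 9 genes was high in W2 (0.98). It included Apoa1, described above, the fatty acid carrier Fabp5 and the secreted peptides Enho (adropin) and Serpina12 (vaspin). Fabp5 was at 893, 2233, 1475, 880, 1811, 880, 831, 535 and 1157. Enho was at 941, 1888, 1073, 516, 933, 710, 725, 641 and 687, and W2 was highest for both. Prok1, which encodes the secreted factor prokineticin 1, was at 55.5, 114, 88.0, 51.4, 109, 51.8, 8.87, 25.2 and 52.9, lowest in W7. The remaining leading genes were Ccnf, 2010003K11Rik and 3110082I17Rik.

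Metallothioneins bind zinc and copper and rise with stress hormones. Mt1 was at 13234, 10090, 8019, 7562, 9537, 5789, 11936, 14670 and 18381 and Mt2 at 6106, 4619, 3195, 3338, 5468, 2515, 6881, 5569 and 9683. Both were highest in W9 and lowest in W6, and they were in a group of 10 genes with a median deviation of 0.84 in W9, 0.51 in W7 and -0.62 in W3. Camk2b, Cdk5rap1, Mup21, Gm5424, Nnt and Dct were the other leading members. The genes of Mt2 and Mt1 lie 5514 bases apart on chromosome 8.

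A further group of 9 genes, with Col1a1 and Top2a among its leading members, was high in W6 (0.69) and W4 (0.41) and low in W1 (-0.94), W7 (-0.74) and W8 (-0.66). The collagen chain Col1a1 was at 22.8, 46.0, 48.7, 89.2, 63.5, 79.8, 43.3, 30.7 and 28.2, and Top2a, a topoisomerase of dividing cells, at 49.6, 59.2, 104, 114, 95.8, 135, 98.7, 58.2 and 71.0. Cdt1, a replication licensing factor, E2f8, Aebp1, Slc25a30, Gm16551 and Serpina4-ps1 were also leading members. Among cell cycle genes, 6 of 17 were among the 300 (35.3%), with a median SD of 0.35. Mcm6, a subunit of the replicative helicase, was at 148, 156, 221, 212, 148, 351, 111, 116 and 98.0, highest in W6, and Mcm2 ranged from 61.0 in W7 to 214, again in W6. Mki67, the proliferation marker, was lowest in W8 (31.8) and at least 55.5 in the others.

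Hemoglobin RNA was highest in W1. Hbb-bs was at 2191, 475, 270, 669, 711, 488, 1262, 752 and 766, Hbb-bt at 384, 83.7, 63.2, 124, 113, 111, 274, 142 and 128, Hba-a1 at 177, 52.1, 35.2, 58.7, 56.6, 44.6, 102, 84.5 and 51.8 and Hba-a2 at 147, 43.9, 23.8, 35.7, 43.9, 49.7, 65.4, 56.0 and 47.3. W1 was followed by W7 in all 4 globin genes, and Hbb-bs was lowest in W3. Hbb-bs and Hbb-bt had r = 0.97 over the 9 columns, and reads of such paralogues can be split between them. Globin RNA stems from red cells and their precursors. Neutrophil, B cell and T cell marker sums were also highest in W1, at 138, 636 and 327 against medians of 92.4, 469 and 274. In the other columns they did not all follow the globin genes. W7 was at 120, 469 and 274, and W3 at 64.2, 504 and 241. The share of blood in the samples was not tested.

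Few markers of the other cell types were among the 300, but the 300 are only 3.125% of the genes with a mean of at least 50. At that share a short list may hold no member, so these counts do not show that such markers were more even than other genes. The median SD was 0.23 for the Kupffer cell, 0.17 for the sinusoidal endothelial and 0.22 for the stellate cell markers. Over all genes with such a mean it was 0.19. None of the 12 Kupffer cell and 10 sinusoidal endothelial markers was among the 300, nor was any of the bile duct, exocrine pancreas, adipocyte or muscle markers with a mean of at least 50. Of the stellate cell markers 1 of 11 was (Col1a1), of the mesothelial markers 1 of 3 (Upk3b) and of the B cell markers 1 of 2 (Ighm). No neutrophil or T cell marker reached a mean of 50. The adipocyte list summed to 15726 to 29770, highest in W8, almost all of it from Car3, which hepatocytes also make, and Lep was at 0 in every column.

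The remaining lists ranged from no member to 2 of 6 among the 300. None of 19 clock genes, 35 interferon-stimulated genes, 9 mitochondrially encoded protein and ribosomal RNA genes or 4 replication-dependent histone genes was among the 300, and their median SDs were 0.20, 0.23, 0.23 and 0.34, against 0.19 over all 9600 genes. The mitochondrial list holds no transfer RNA genes, and 3 of these were among the 300: mt-Ta (SD 0.93), mt-Ti (0.84) and mt-Tq (0.71). Fatty acid oxidation had 1 of 28 (Cyp4a31), heat shock proteins 1 of 19 (Creld2) and antigen presentation genes 1 of 21 (H2-Q1). With 1 gene each, these lists were at 3.57 to 5.26%, against the share of 3.125% that the 300 make up. The lists that follow were further above it. Pericentral genes had 3 of 20 (15.0%) and periportal genes 3 of 19 (15.8%), the latter with none left without W8. The P450 and conjugation enzymes had 11 of 89, with a median SD of 0.26. Of 30 acute phase genes, which IL-22 and IL-6 are known to induce, 5 were among the 300 (16.7%), and the list's median SD was 0.30. Bile acid transport had 3 of 21, metallothioneins and zinc transport 2 of 6 (33.3%), and long noncoding RNAs 3 of 10.

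By gene type, 87.0% of the 300 were protein-coding, against 98.0% of the 9600. Pseudogenes, ribosomal RNA, microRNA and mitochondrial transfer RNA features made up part of the remainder. On chromosome 7, which carries the Sult2a and beta-globin clusters, lay 30 of the 300, and 7.16% of the 9600. Within 100 kb of another of the 300 lay 48 genes (16.0%), in 26 pairs. Of these pairs, 15 had r above 0.5 over the 9 columns and 4 overlapped. C8b and C8a (r = 0.97, 11131 bases apart), Mup17 and Mup18 (0.80) and the globin pairs were among them. Neighbours were not counted over the 9600 genes, nor was r above 0.5 over other pairs of the 300. High values of r were common wherever genes lay, with a median of 0.72 and 0.76 within the groups of 80 and 73 genes. The counts of pairs are therefore no sign that neighbours moved together more than other genes. The median exonic length of the 300 was 2709 bases, against 4484.

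The 9 IR columns did not choose the genes, so the spread of these genes there was not used in the choice. Of the 300, 218 had a mean of at least 50 in the IR columns. Their median SD there was 0.63, against 0.28 for all 9749 genes with such a mean, and 197 of the 218 were above that median. The lists of 300 from the W and the IR columns shared 44 genes, or 14.7% of each. For comparison, the 300 are 3.125% of the genes with a mean of at least 50 in the W columns. Leaving out W8 gave 49 shared genes. Genes with a mean of 50 to 100 in the W columns made up 35.7% of the 300, against 17.9% of all. The comparisons with the IR columns were not matched for mean, and the part of low counts in the shared spread was not tested. The shared genes included Pmel (SD 2.69 in the W and 1.92 in the IR columns), Mup9 (1.83 and 1.45), Myc (0.87 and 1.35) and the 4 globin genes. Members of the list of sex-biased liver and sex chromosome genes were shared too. Among them were Hsd3b5 (1.04 and 2.47), Serpina1e (1.01 and 1.69), Selenbp2 (0.82 and 2.13) and A1bg (0.77 and 2.59). Xist had an SD of 0.50 in the W and 4.92 in the IR columns, and the IR columns held between 0 and 4305 normalised counts of it. The 4 Y-linked genes summed to 0 to 1034 in the IR columns, and were above 100 in 6 of the 9, where no W column passed 2.07. Xist was above 100 in 5 of the 9 IR columns. The W and IR columns thus differed in RNA of the sex chromosomes, and the part of this in the shared spread was not tested. Mup11 (3.45), Cyp2c69 (3.45) and Cyp3a16 (3.03) also had far larger SDs in the IR columns than in the W columns (0.60, 0.48 and 0.52). Wdfy1 and Fasn were not among the shared genes, and their SDs in the IR columns were 0.64 and 0.38.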

How the data were processed

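RNA was isolated from liver with Trizol and made into libraries with an NEBNext Ultra kit, per the labels' protocols. Trimmomatic 0.33, STAR 2.5.0a, DESeq2 1.14 and GRCm38 are listed, per the submitters' processing notes. How reads were counted, with which annotation and whether by strand, is not given in the sources used here, so overlapping and near-identical genes may share reads. The signal values the authors deposited are, by the table's title, DESeq2-normalized counts, that is counts over a size factor per library. In each W column all values (100% within 0.001 read) were whole multiples of 1 step, which gave reads per column and the counting SD, a delta-method estimate that covers counting error only.

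Samples were grouped by surgery from the labels, and W was read as sham by elimination. Values were taken as log2(value + 1), with no further scaling. Genes with a mean of at least 50 over the 9 columns were ranked by SD, and the 300 highest kept. No test was run, because the genes were chosen by the values described. The rule, the gene lists and the genes named were chosen with earlier results of these data known. Named are the 25 genes with the largest share of counts, the 40 with the largest SD, 5 on each side of rank 300, up to 8 per group and 4 per list, the 10 most even overall and the 10 most even with a mean of at least 5000, and the genes most like them by Pearson correlation. A few genes that these rules pick are not reported here. Acly, Srebf1, Krt19, Ctrb1, Cela1, Cyp2c69, Mup18, mt-Tq and 2410022M11Rik were named after their values were seen. Lengths, GC, types and positions came from GENCODE vM21, where 419 of 47729 features had no entry, 1 of them among the 300. Promoter windows came from RefSeq on GRCm38.p6. Alternatives changed the pseudocount, the minimum mean, the measure of spread, the scaling, the linkage and cut, and left out each column. The script that ranks genes was tested on simulated data. Tools were Python 3.11.15, pandas 2.3.3, numpy 2.4.6, scipy 1.17.1, statsmodels 0.14.6, Biopython 1.88, R 4.3.3 with edgeR 4.0.16 (TMM and upper-quartile factors), and matplotlib 3.10.9.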

Additional observations from a re-analysis of the deposited data

Results flagged for a closer look

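In each of the genes named, the gap between the extreme column and its neighbour was compared with the whole range of the 9 columns. The same was done for recovered reads, features above 0, and the shares of mitochondrially encoded RNA and of ribosomal RNA features. Of these column properties, only the share of ribosomal RNA features was marked. Chance marks about 1 in 20 such groups; 25 of 179 named genes were marked, and 734 of all 9600 genes with a mean of at least 50 (7.65%). Because many of these genes were chosen for their spread, the count is a description. Column W8 was far above the rest for Scd1 (104630, others 39848 to 59230), G0s2 (7258, others 981 to 2244) and Mid1ip1 (2044, others 410 to 899).

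W8 was far below the rest for C3 (31810, others 47323 to 60546), Pzp (16349, others 35502 to 53124), C8a (1397, others 2944 to 4497), Slco1a1 (1040, others 2726 to 5936), Xist (1751, others 3622 to 5335) and Malat1 (512, others 1320 to 2418). The same held for Selenbp2 (134, others 488 to 956), Socs2 (171, others 397 to 800), Nlrp12 (106, others 297 to 651), Mki67 (31.8, others 55.5 to 90.0), Hsd3b5 (27.4, others 93.2 to 304) and F830016B08Rik (20.8, others 65.4 to 114).

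Column W9 was far below the rest for Sult2a1 (49.6, others 636 to 2683), Sult2a2 (154, others 552 to 2037), Aldh3b3 (28.2, others 49.3 to 79.7) and Scarf2 (23.7, others 40.4 to 69.4). It was far above the rest for Gm23935 (2146, others 548 to 936), Mir6236 (8226, others 2315 to 4176), Lars2 (7435, others 2216 to 3584), Gm15564 (1596, others 489 to 797) and the share of ribosomal RNA features (0.711%, others 0.388 to 0.523%). Ccn1 was low in W5 (15.0, others 42.0 to 69.4), and Creld2 was high in W2 (666, others 246 to 377).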

How the results depend on the processing

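The number of genes that reach 50% of all counts was 121 as reported, 120 to 123 with any column left out, 140 without mitochondrially encoded genes and 33 per exonic length. Of the 300 genes, 191 to 282 were shared when any column was left out, the lowest without W8, and 245 to 298 with other pseudocounts. TMM and upper-quartile scaling each shared 283, and an SD above the trend on the mean shared 260. The median absolute deviation, which a single extreme column moves less, shared 157. Changing the minimum mean changed the genes tested: 62 were shared with a mean of at least 10, 130 with at least 200 and 12 with no minimum. The 10 groups of genes became 4 groups with 154 genes at a cut of 0.3, and 9 with 287 at 0.7. Complete linkage gave 12 groups with 171 genes and Spearman correlation 12 with 255. The same 300 genes without W8, an alternative added after the data were seen, gave 15 groups with 259 genes. Of the 179 named genes, the SD moved for 39 without W8, 13 without W9, and 8 or fewer without any other column, for 1 with a pseudocount of 5 and for none under TMM. No paired analysis was possible because the headers lack the replicate numbers of the labels. Depth limits the genes with a mean near 50 most, where the counting SD is largest.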
